A study of Canis lupus familiaris with 16 samples.

Results

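HOX genes encode homeobox transcription factors and lie in 4 clusters, A to D, in which each gene carries a paralog number from 1 to 13. The HOX genes described here were all genes of the deposited count table whose symbol is HOX, a cluster letter and a number, 39 of 41818 genes. Of these, 11 belong to cluster A, 10 to cluster B, 9 to cluster C and 9 to cluster D. They were grouped into 8 anterior genes (paralogs 1 to 3), 15 central genes (paralogs 4 to 8) and 16 posterior genes (paralogs 9 to 13).

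The study sequenced RNA of 16 canine soft tissue sarcomas kept as fixed tissue in paraffin, and the tumors are compared here by their molecular identity. The 4 fibrosarcomas (FS) came from the shoulder (S1-02), stifle (S1-11), metacarpus (S1-12) and hip (S2-06), in dogs aged 11, 13, 9 and 11 years, and values of FS are listed in this order throughout. The 6 peripheral nerve sheath tumors (PNST) came from the hip (S1-03), knee (S1-04 and S1-05), ilium (S1-09), thigh (S1-10) and the space between digits of a forelimb (S2-07), in dogs aged 8, 10, 10, 9, 11.7 and 13 years. The 6 perivascular wall tumors (PWT) came from the thoracic wall (S1-07), head (S2-03), antebrachium (S2-04), ventral thorax (S2-08), lateral thorax (S2-09) and carpus (S2-11), in dogs aged 12, 12, 14, 2, 9 and 12.5 years. Breeds differed, with Golden Retrievers among FS (S1-11 and S2-06) and PWT (S2-03), and no treatment is named in the labels. By histology S1-10 was a PWT and S2-08 an FS, and molecular identity was assigned from expression of these same tumors. S1-04 and S1-05 carry the same breed, age, site and size, so the 6 PNST may come from 5 dogs.

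In the embryo, HOX genes are expressed along the head to tail axis in the order of their paralog numbers, and the posterior genes of clusters A and D also pattern the limb from shoulder or hip to digits. Fibroblasts and other mesenchymal cells of adult skin and soft tissue keep part of this positional pattern. HOX proteins bind DNA together with cofactors of the PBX and MEIS families.

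Site and type overlapped, since 5 of 7 hindquarter tumors were PNST and the other 2 FS, while all 3 thoracic tumors and the 1 head tumor were PWT. The forelimb gave 5 tumors, of which 3 were distal, with 1 of each type (S1-12, S2-07 and S2-11). Between 507728 (S1-12) and 4311876 (S1-03) counts fell on genes, so that 1 count stood for 0.284 CPM in S1-03 and 1.84 CPM in S1-12. Of the 39 HOX genes, 14 reached 10 counts in 4 or more tumors, and these entered the edgeR test over 15408 genes. Of the other 25, 14 reached 10 counts in at least 1 tumor, and 11 stayed under 10 counts in each. At least 1 count was found for 9 HOX genes in all 16 tumors, and 0 HOX genes were without a count everywhere.

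Markers of each type were checked first. The 7 fibroblast markers summed to 26177, 100752, 27761 and 18087 CPM in FS, 15056 to 36199 in PNST and 8909 to 21782 in PWT. Collagens carried most of these sums in FS, and not every marker of the list was higher there. *DCN* was at 118 to 2688 (median 1102) CPM in FS, 1953 to 3723 (median 3301) in PNST and 2195 to 5062 (median 3230.2) in PWT, and *FAP* at 51.3 to 354 (median 169) CPM in FS, 229.6 to 771 (median 272) in PNST and 134 to 753 (median 405) in PWT, so the medians of both were lower in FS. Of the 9 Schwann cell markers, *SOX10*, *S100B*, *ERBB3*, *NGFR*, *NES* and *GAP43* had counts in all 6 PNST, and *OLIG2* was at 0 in all 6. *SOX10*, *ERBB3* and *NES* had counts in all 16 tumors. The 9 summed to 103, 322, 142 and 105 CPM in FS, 76.1 to 264 in PNST and 52.4 to 150 in PWT. This list thus did not set PNST apart, and its highest sum was in the stifle FS. The most abundant gene of this list differed between tumors and was *ERBB3*, *NES* or *GAP43* in each of the 16. The 11 pericyte and vascular smooth muscle markers summed to 615 to 1221 CPM in PWT, 508 to 1294 in PNST and 1024 to 2159 in FS, so these lists did not set PWT apart. Sections are mixtures, and a difference in the number of cells of a type cannot be told apart from a difference in RNA per cell.

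All 16 tumors expressed HOX genes, and the largest share of HOX counts fell on cluster C in every tumor but the metacarpus and hip FS. *HOXC6*, a central gene, held more counts over the 16 tumors than any other HOX gene. The FS of the stifle, metacarpus and hip differed from all other tumors in the posterior genes, on which they had 182, 234 and 229 counts. The shoulder FS had 66 posterior counts, 28 of them on *HOXA9*, while PNST had 14 to 76 and PWT 4 to 37. Summed over the 39 genes, levels were 202, 318, 954 and 296 CPM in FS, 136 to 330.0 (median 234) in PNST and 149.8 to 299.7 (median 264) in PWT. These sums and the shares below weigh genes with longer transcripts more, and levels are compared only between tumors within a gene.

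**Figure D1:**
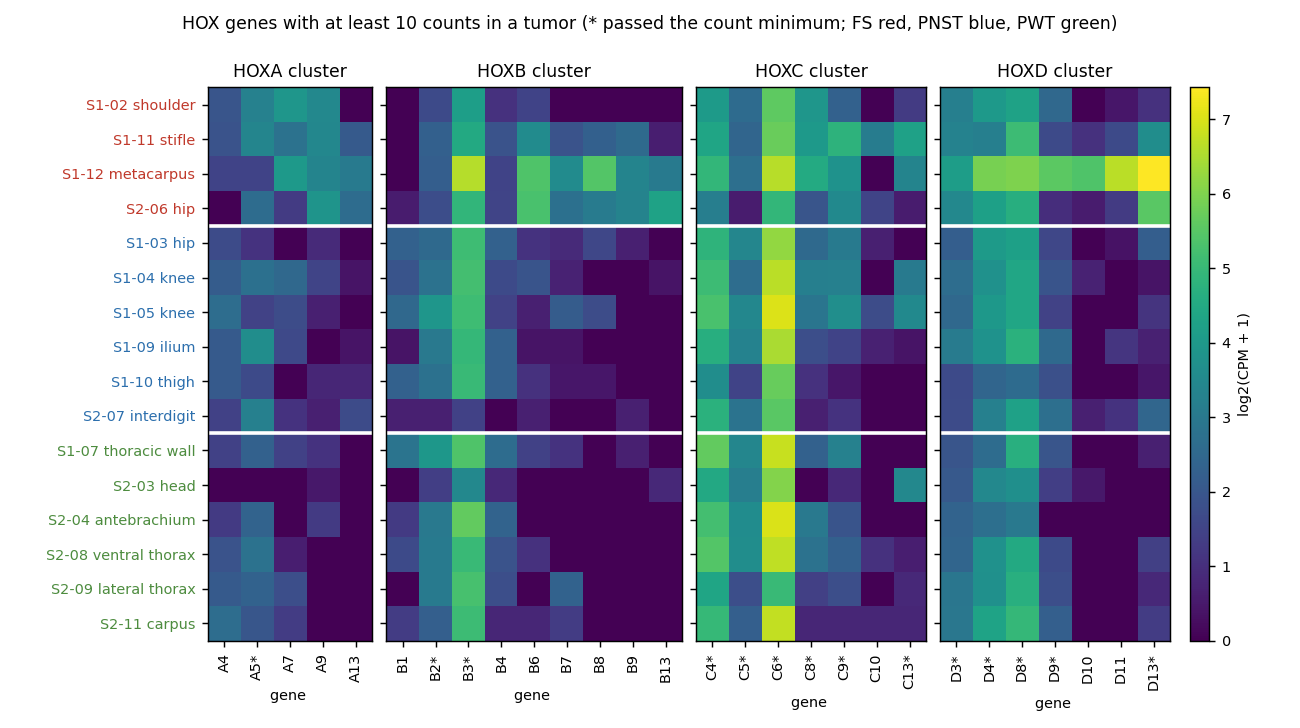
Levels of the HOX genes with at least 10 counts in a tumor as log2 of CPM plus 1 in each of 16 tumors, by cluster and paralog number, with FS in red, PNST in blue and PWT in green. Each posterior gene shown reached its highest level in an FS, as with HOXD13 at 171 CPM in S1-12.

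Shares of the clusters overlapped between types, and no test of them was run. Cluster C held 42.9%, 47.4%, 18.5% and 18.1% of the HOX counts in FS, against 48.7% to 63.5% (median 54.1%) in PNST and 34.1% to 70.1% (median 61.7%) in PWT. The share of cluster C was thus lower in the metacarpus and hip FS than in every PNST and PWT, while the shoulder and stifle FS lay inside the range of PWT. In CPM, cluster C summed to 86.8, 151, 177 and 53.7 in FS, 66.3 to 210 (median 125) in PNST and 58.9 to 184 (median 156) in PWT. By this sum only the hip FS lay below every PNST and PWT. Cluster D held 52.7% of the counts in the metacarpus FS, and 23.6%, 21.6% and 33.7% in the shoulder, stifle and hip FS. In PNST it held 10.6% to 27.8% (median 17.1%) and in PWT 6.15% to 27.0% (median 17.3%). Cluster B was largest in the hip FS, at 38.0%, and smallest in the interdigital PNST S2-07, at 3.42% (exact 95% interval 1.58% to 6.40%). Cluster A was largest in the shoulder FS, at 22.3%, and ranged from 2.43% to 15.6% in the PNST and PWT.

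Posterior genes held 11.7% (exact 95% interval 9.17% to 14.6%), 31.4% (27.6% to 35.3%), 45.2% (40.8% to 49.6%) and 36.7% (32.9% to 40.6%) of HOX counts in FS. The share was 3.72% to 11.8% (median 8.01%) in PNST and 2.05% to 9.97% (median 3.95%) in PWT. The stifle, metacarpus and hip FS lay above every other tumor, while the shoulder FS lay between the highest PWT (S2-03) and the highest PNST (S2-07). Exact intervals and count floors in this text cover counting error only. Without *HOXC13* and *HOXD13*, the posterior share was 10.6%, 24.3%, 32.4% and 25.2% in FS and at most 9.02% in the other 12 tumors.

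Posterior genes with a count were counted too. At least 1 count was found for 8, 16, 13 and 13 of the 16 posterior genes in FS, for 6 to 10 in PNST and for 3 to 8 in PWT. Since deeper libraries detect more genes, the number expected at the depth of S1-12 was computed, which gave 4.82, 11.1, 13 and 9.42 posterior genes in FS, 1.88 to 5.58 in PNST and 2.31 to 3.36 in PWT. The stifle FS thus came first by genes with a count and the metacarpus FS at equal depth, where the shoulder FS lay inside the range of PNST. The highest CPM of a gene was in an FS for 29 of the 39 HOX genes, against 36.3% of the 36420 genes with a count, and for 16 of 16 posterior genes. S1-12, the shallowest library, held the highest CPM of 20 HOX genes, against 10.7% of all genes.

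**Figure D2:**
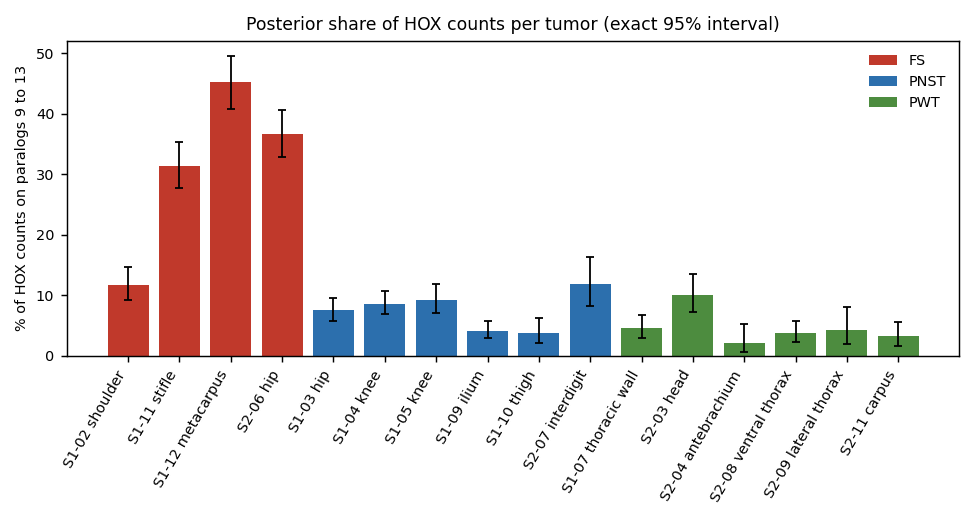
Percent of HOX counts on posterior genes (paralogs 9 to 13) in each tumor, with exact 95% intervals, colored by type. The stifle, metacarpus and hip FS lie at 31.4%, 45.2% and 36.7%, above all other tumors.

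The 4 FS were compared with the 6 PNST and 6 PWT pooled. FS had more RNA of several posterior HOX genes, of which *HOXA9*, *HOXB9* and *HOXD13* were called with no count minimum in each of 16 fits with 1 tumor left out, as was *HOXB6* of the central genes. Only *HOXA9* among them was higher in all 4 FS than in every other tumor. The shoulder FS had 0 counts of *HOXB9* and lay inside the range of the other types in *HOXB6* and *HOXD13*. Most HOX counts lay on anterior and central genes in all 16 tumors. Of these, *HOXC4* and *HOXC6* overlapped between types, while *HOXB3*, *HOXD4* and *HOXD8* were higher in the metacarpus FS than in each PNST and PWT. Of the 14 HOX genes past the count minimum, edgeR called 2, both higher in FS, where 9.46% of all 15408 genes were called (5.78% higher), and 8 of the 14 had an unadjusted p under 0.05, as did 3915 of the 15408. With no count minimum, edgeR tested all 39 and called 10, all higher, where 5.32% of 36420 genes were called (3.80% higher). DESeq2, with its own filter, called 11 of the 31 it adjusted, all higher, against 9.83% of all genes (6.13% higher). A gene that is high in FS alone could pass the count minimum only through FS, so counts over the 14 do not stand for all HOX genes. P-values measure spread between these 16 tumors.

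Among the posterior genes of cluster D, *HOXD13*, the last gene of its cluster and a gene of the digits in the embryo, stood at 1.08, 11.5, 171 and 45.1 CPM in FS. It ranged from 0.314 to 4.48 (median 0.886) in PNST and 0 to 1.64 (median 0.694) in PWT. The counts in FS were 3, 21, 93 and 95. edgeR gave *HOXD13* a log2 fold change of 5.33 (SE 0.78) at an adjusted p of 0.000491, where SE is the standard error. The metacarpus, hip and stifle FS lay above all 12 other tumors, and the shoulder FS lay inside their range. *HOXD13* had at least 10 counts in 4 tumors only, so it fell below the count minimum when S1-03, S1-11, S1-12 or S2-06 was left out. Tested with no count minimum, *HOXD13* was called in 16 of 16 such fits, with a log2 fold change of 3.75 (edgeR adjusted p 0.00309) without S1-12. *HOXD13* was also called among the hindquarter tumors alone, where the log2 fold change was 4.44 (edgeR adjusted p 0.0265), and among the tumors of other sites alone, where it was 5.86 (edgeR adjusted p 0.0204). The hindquarter fit set 2 FS against 5 PNST, with no PWT. Outside the hindquarter the FS were the shoulder tumor, with 3 counts, and the metacarpus tumor, with 93, so that call rested on the metacarpus FS.

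*HOXD9*, at the start of the posterior genes of its cluster, was at 4.66, 2.19, 46.0 and 0.950 CPM in FS, 1.75 to 5.61 (median 2.68) in PNST and 0 to 3.74 (median 2.32) in PWT. Only the metacarpus FS stood above the other tumors. The log2 fold change of *HOXD9* was 2.06 (SE 0.70) and not called by edgeR (adjusted p 0.0653), while DESeq2 called it (adjusted p 0.0276), as did edgeR without S1-11 or S2-06. Within hindquarter tumors alone the direction of *HOXD9* turned, to -0.84. *HOXD10* and *HOXD11*, posterior genes of the distal limb, were close to 0 outside 1 tumor. *HOXD10* was at 0, 1.10, 40.5 and 0.475 CPM in FS and at most 0.629 in the other 12 tumors, with medians of 0 in PNST and PWT. For *HOXD11* the levels were 0.359, 2.19, 99.4 and 1.43 CPM in FS, 0 to 1.21 (median 0.142) in PNST and 0 in each PWT. In S1-12 the 3 sequencing runs gave *HOXD11* 15, 22 and 17 counts, and *HOXD10* 9, 4 and 9. Without the minimum, edgeR gave *HOXD11* a log2 fold change of 6.07 (SE 0.98), adjusted p 0.000452. For *HOXD10* the log2 fold change was 5.29 (SE 1.05), adjusted p 0.00281 from edgeR. Neither was called without S1-12, where the log2 fold changes were 2.08 for *HOXD11* and 1.37 for *HOXD10*, and *HOXD11* was at 6.75 without S1-09. DESeq2 gave no p for either.

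Of the posterior genes of cluster A, *HOXA9*, which also acts in blood cell precursors, was nearly even over the 4 FS. It was at 10.0, 9.87, 9.21 and 13.3 CPM in FS, 0 to 1.89 (median 0.654) in PNST and 0 to 1.39 (median 0.202) in PWT, so every FS lay above every other tumor. The counts behind these levels were 28, 18, 5 and 28, so S1-12 stayed under 10 counts, with 2, 3 and 0 in its runs. edgeR with no count minimum put *HOXA9* at a log2 fold change of 3.88 (SE 0.61), adjusted p 0.000381, and it was called in 16 of 16 fits with 1 tumor left out. *HOXA13*, the last gene of cluster A and a gene of hand, foot and genital tubercle, was at 0, 3.29, 7.37 and 5.23 CPM in FS, 0 to 2.24 (median 0.308) in PNST and 0 in each PWT. It was high in the stifle, metacarpus and hip FS, above all other tumors. Its log2 fold change with no count minimum was 3.24 (SE 0.91), edgeR adjusted p 0.0351, and the call was kept in 9 of 16 fits with 1 tumor left out, with 4.03 without S2-07. *HOXA10*, a posterior gene of limb and uterus that is named here after its values were seen, was at 1.79, 3.84, 7.37 and 1.43 CPM in FS and at most 1.39 in the other 12 tumors. Its counts in FS were 5, 7, 4 and 3. The 1.39 CPM was 1 count in S2-04, and S1-03 and S1-04 had 4 counts each. DESeq2 called *HOXA10* higher (adjusted p 0.0270), and edgeR with no count minimum did not (adjusted p 0.0737).

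*HOXB9* and *HOXB13*, the 2 posterior genes of cluster B, had 0 counts in the shoulder FS. *HOXB9*, a gene of the thoracic skeleton, was at 0, 4.93, 9.21 and 9.03 CPM in FS, 0 to 0.569 (median 0) in PNST and 0 to 0.570 (median 0) in PWT. The other 3 FS stood above all 12 other tumors. The fit with no count minimum gave *HOXB9* a log2 fold change of 4.64 (SE 0.86), edgeR adjusted p 0.00159, and it was called in 16 of 16 fits with 1 tumor left out. *HOXB13*, a gene of the tail end and of the prostate, was at 0, 0.548, 7.37 and 18.5 CPM in FS, 0 to 0.314 (median 0) in PNST and 0 to 0.808 (median 0) in PWT. It was highest in the hip FS, followed by the metacarpus FS, and the stifle FS lay inside the range of the other tumors. For *HOXB13* the same fit gave 5.19 (SE 0.93), edgeR adjusted p 0.00114. Without S2-06 it was not called, at a log2 fold change of 3.46 (edgeR adjusted p 0.0784), and without S2-03 it was at 5.96.

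The posterior genes of cluster C were uneven over FS. *HOXC9*, the first posterior gene of the cluster, was at 3.94, 26.9, 12.9 and 10.5 CPM in FS, 0.362 to 11.7 (median 4.60) in PNST and 0.748 to 8.55 (median 2.62) in PWT, with FS and PNST overlapping. *HOXC9* had a log2 fold change of 1.66 (SE 0.65), adjusted p 0.110 from edgeR, and 1.02 without S1-11. *HOXC10*, expressed in the hindlimb in the embryo, was at 0, 7.68, 0 and 1.90 CPM in FS, 0 to 2.34 (median 0.284) in PNST and 0 to 1.09 (median 0) in PWT. The stifle FS stood alone in *HOXC10*, with 5, 4 and 5 counts in its 3 runs, and the log2 fold change was 2.35 with an adjusted p of 0.168 from edgeR with no count minimum. *HOXC11*, a posterior gene named like *HOXC12* after its values were seen, had 3 counts, all in the stifle FS. *HOXC12*, its neighbor, had 9 counts in the stifle FS (4.93 CPM), 0 in the other FS and at most 1.17 CPM elsewhere. *HOXC13*, a gene of hair follicle and nail keratinocytes, was at 1.43, 18.1, 9.21 and 0.475 CPM in FS, 0 to 10.5 (median 0.151) in PNST and 0 to 10.1 (median 0.647) in PWT. Its high tumors were of all 3 types, S1-11 and S1-12 in FS, S1-04 (7.23) and S1-05 (10.5) in PNST and S2-03 (10.1) in PWT, and edgeR did not call it (log2 fold change 1.40, SE 1.10, adjusted p 0.462).

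Keratinocyte markers varied with some of these tumors. All 9 were in the table, and they summed to 1438, 114, 873 and 20.9 CPM in FS, to 972 in S1-04 and 1341 in S1-05 among PNST, and to 1037 in S2-03 among PWT. The other PNST and PWT had 5.57 to 35.3 CPM. The most abundant of them was *DSP* in those 7 tumors, and *KRT5*, *KRT14*, *KRT1*, *DSG3* and *KRT15* were at 0 in the stifle FS. *HOXC13* was above 7 CPM in 4 of the 5 tumors with 873 CPM or more of these markers, all but the shoulder FS, and also in the stifle FS. *HOXD13* was at 1.08, 11.5, 171 and 45.1 CPM in FS, whose marker sums are given above. In S1-04, S1-05 and S2-03 it was at 0.314, 1.17 and 0 CPM. Whether skin in the section contributed to the *HOXC13* or *HOXD13* counts was not tested.

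Skeletal muscle markers were highest in S1-11, S1-07 and S2-09. All 10 were in the table, and they summed to 8.96, 1242, 9.21 and 7.13 CPM in FS and to 6.64 to 57.7 CPM in PNST. Among PWT they summed to 501 CPM in S1-07, 124 in S2-09 and 4.04 to 20.9 in the other 4. *ACTA1* was the most abundant of them in S1-11, S1-07 and S2-09, where all 10 had a count. In the metacarpus FS 7 of the 10 were at 0, and in the hip FS 3 (*ACTA1*, *MYH1* and *MB*). The part of muscle in the HOX counts of the stifle FS and of S1-07 was not tested.

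**Figure D3:**
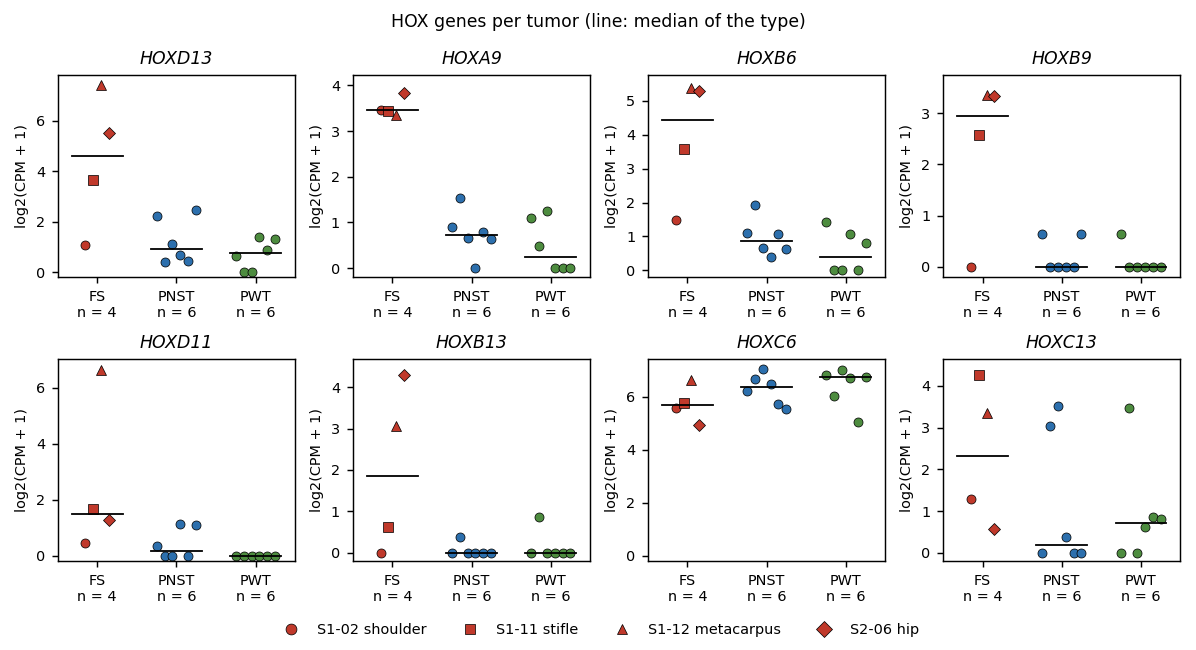
CPM of 8 HOX genes as log2 of CPM plus 1 in each tumor, by type, with a line at the median and the 4 FS drawn with separate marks. HOXA9 is higher in every FS (9.21 to 13.3 CPM) than in any other tumor (at most 1.89 CPM), while HOXC6 overlaps over the types.

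Among the central genes of cluster B, edgeR with no count minimum called *HOXB5*, *HOXB6* and *HOXB8* higher in FS, and not *HOXB4* and *HOXB7*. *HOXB6*, of lung and limb bud mesenchyme, was at 1.79, 11.0, 40.5 and 38.0 CPM in FS, 0.302 to 2.83 (median 0.836) in PNST and 0 to 1.71 (median 0.374) in PWT. The stifle, metacarpus and hip FS were above all other tumors, and the shoulder FS was not. The runs of S1-12 were uneven in *HOXB6*, with 1, 13 and 8 counts. With no count minimum the log2 fold change of *HOXB6* was 4.42 (SE 0.63), adjusted p 0.000144 from edgeR, and it was called in 16 of 16 fits with 1 tumor left out. *HOXB7*, its neighbor, was at 0, 2.74, 11.0 and 5.70 CPM in FS, 0 to 3.50 (median 0.495) in PNST and 0 to 4.09 (median 0.570) in PWT, overlapping and not called (log2 fold change 2.04, adjusted p 0.218 from edgeR with no count minimum). *HOXB8*, a gene of trunk and spinal cord, was at 0, 3.84, 42.4 and 7.60 CPM in FS, 0 to 2.34 (median 0.181) in PNST and 0 in each PWT. It was highest in the metacarpus FS, with 5, 8 and 10 counts in its runs, and above all other tumors in the stifle and hip FS too. *HOXB8* had a log2 fold change with no count minimum of 4.50 (SE 0.97), adjusted p 0.00575 from edgeR, and the call was lost without S1-12, at 2.89, while without S1-03 it was at 5.24. *HOXB5*, a central gene named here after its values were seen, was at 0.717, 3.84, 12.9 and 0.475 CPM in FS and at most 1.121 in the others, called by edgeR with no count minimum (log2 fold change 2.95, adjusted p 0.0312) and not called without S1-11 or without S1-12, where it was at 1.85. *HOXB4*, which acts in blood stem cells, was at 1.08, 2.74, 1.84 and 1.90 CPM in FS, 0 to 3.99 (median 3.06) in PNST and 0.748 to 5.13 (median 2.59) in PWT, with a log2 fold change of -0.53 that was not called (adjusted p 0.694 from edgeR with no count minimum).

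In cluster A, *HOXA7*, a central trunk gene, was at 14.0, 6.03, 14.7 and 1.43 CPM in FS, 0 to 4.71 (median 1.62) in PNST and 0 to 2.45 (median 1.02) in PWT. The shoulder, stifle and metacarpus FS lay above all PNST and PWT in *HOXA7*, and the hip FS lay inside their range. DESeq2 called *HOXA7* higher (adjusted p 0.0238), and edgeR with no count minimum gave a log2 fold change of 2.51 (SE 0.76) and an adjusted p of 0.0515. *HOXA4*, a central gene of the neck region, was at 2.87, 2.74, 1.84 and 0 CPM in FS, 1.68 to 5.26 (median 3.29) in PNST and 0 to 5.24 (median 2.22) in PWT, and its log2 fold change of -0.60 was not called (edgeR adjusted p 0.694 with no count minimum). The types overlapped in *HOXA4* and in *HOXA5*, a gene of lung and cervical vertebrae, which was at 8.60, 9.32, 1.84 and 5.23 CPM in FS, 1.14 to 11.5 (median 3.92) in PNST and 0 to 6.01 (median 4.04) in PWT. The log2 fold change of *HOXA5* was 0.60 (SE 0.63), adjusted p 0.602 from edgeR.

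Among the central genes of cluster C, only *HOXC8* set several FS apart. *HOXC6*, of thoracic position, was at 47.0, 52.6, 97.6 and 29.5 CPM in FS, 44.8 to 129.7 (median 80.9) in PNST and 31.9 to 127 (median 104) in PWT. The lowest level of *HOXC6* was in the hip FS, the ranges overlapped, and the log2 fold change was -0.63 (SE 0.36), adjusted p 0.291 from edgeR. *HOXC4*, the first gene of the cluster, was at 15.4, 19.7, 29.5 and 8.08 CPM in FS, 11.6 to 38.0 (median 26.7) in PNST and 19.6 to 49.0 (median 33.5) in PWT, with a log2 fold change of -0.77 (SE 0.35), edgeR adjusted p 0.178. The hip FS again had the lowest level. *HOXC5*, which lies between *HOXC4* and *HOXC6*, was at 5.02, 4.39, 5.52 and 0.475 CPM in FS, 1.81 to 9.93 (median 7.46) in PNST and 2.45 to 11.5 (median 8.88) in PWT, overlapping between types (log2 fold change -0.98, SE 0.55, edgeR adjusted p 0.278). *HOXC8*, a gene of the lower thorax, was at 14.0, 14.8, 22.1 and 2.85 CPM in FS, 0.560 to 8.17 (median 3.62) in PNST and 0 to 6.97 (median 2.81) in PWT. The shoulder, stifle and metacarpus FS were above all other tumors in *HOXC8*, the hip FS was not, and the log2 fold change of 1.86 (SE 0.65) was not called (edgeR adjusted p 0.0754), but was without S1-04 or S2-06. Gene models of *HOXC4* overlap those of *HOXC5*, *HOXC6*, *HOXC8* and *HOXC9*, and those of *HOXC5* overlap *HOXC6*. Models of *HOXB3* overlap *HOXB4*, *HOXB5* and *HOXB6*, models of *HOXB8* overlap *HOXB9*, and models of *HOXA3* overlap *HOXA4*, *HOXA5* and *HOXA6*. How counts divide between all these neighbors is uncertain.

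*HOXD3*, *HOXD4* and *HOXD8* of cluster D had counts in every tumor. *HOXD3*, an anterior gene of cell adhesion and neck vertebrae, was at 8.25, 8.77, 16.6 and 9.98 CPM in FS, 2.17 to 7.54 (median 4.18) in PNST and 2.85 to 6.73 (median 4.28) in PWT, so the 4 FS lay above the other 12 tumors. The 4 FS stood apart in this way in 3 of 39 HOX genes (*HOXA9*, *HOXA10* and *HOXD3*), against 0.813% of the 36420 genes with a count. In *HOXA10* this rested on 3 counts in the hip FS (1.43 CPM) against 1 count in S2-04 (1.39 CPM), within counting error. edgeR called *HOXD3* at a log2 fold change of 1.23 (SE 0.36) and an adjusted p of 0.0331. The call was lost without S1-11 (edgeR adjusted p 0.0632), S1-12 (0.105) or S2-06 (0.0612), and with no count minimum (0.102). *HOXD4*, the first central gene of cluster D, was at 15.1, 8.22, 58.9 and 17.6 CPM in FS, 4.35 to 15.6 (median 12.6) in PNST and 5.13 to 18.7 (median 11.2) in PWT. Only the metacarpus FS was above the other tumors in *HOXD4* (log2 fold change 1.08, SE 0.42, edgeR adjusted p 0.112), and without it the log2 fold change was 0.30. *HOXD8*, the last central gene of cluster D, was at 18.3, 33.4, 62.6 and 24.2 CPM in FS, 5.07 to 25.9 (median 18.9) in PNST and 6.97 to 29.9 (median 23.2) in PWT. The stifle and metacarpus FS exceeded the others, and the log2 fold change of *HOXD8* was 0.82 (SE 0.37), adjusted p 0.172 from edgeR.

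The anterior genes of cluster B were not higher in FS as a type. *HOXB3*, of hindbrain and neck, was at 16.9, 21.9, 95.8 and 28.5 CPM in FS, 1.68 to 36.1 (median 32.5) in PNST and 10.1 to 48.8 (median 35.3) in PWT, highest in the metacarpus FS and lowest in the interdigital PNST S2-07. The log2 fold change of *HOXB3* was 0.35 (SE 0.51), adjusted p 0.731 from edgeR, and turned to -0.44 without S1-12. *HOXB2*, a hindbrain gene, was at 2.15, 3.84, 3.68 and 2.38 CPM in FS, 0.560 to 14.0 (median 5.88) in PNST and 1.62 to 14.2 (median 7.04) in PWT, where the 4 FS lay below the medians of both other types. The log2 fold change of *HOXB2* was -1.16 (SE 0.60), adjusted p 0.235 from edgeR. *HOXB1*, the first gene of cluster B, had 1 count in FS, in the hip tumor (0.475 CPM), and was at 0.302 to 4.67 (median 3.40) CPM in PNST and 0 to 6.27 (median 1.44) in PWT. It was the HOX gene with the most negative log2 fold change in FS, -3.63 (SE 1.26), not called (edgeR adjusted p 0.0962 with no count minimum).

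Over the fit with no count minimum, the log2 fold change in FS was above 0 for 31 of 39 HOX genes, against 47.7% of all genes. The median over the 38 genes without *HOXC11*, which was at 0 in the other 12 tumors, was 1.88, against -0.06 over all genes. All 16 posterior genes were above 0, with a median of 2.82 over 15 of them, and 14 of 16 had an unadjusted p under 0.05 in edgeR, as did 6401 of all 36420 genes. Without the metacarpus FS, edgeR with no count minimum called 5 of 39, *HOXA9*, *HOXB6*, *HOXB9*, *HOXB13* and *HOXD13*, with 1762 of 36363 genes called in that fit. With the count minimum it then called 0 HOX genes and 1299 of all 15377 genes.

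**Figure D4:**
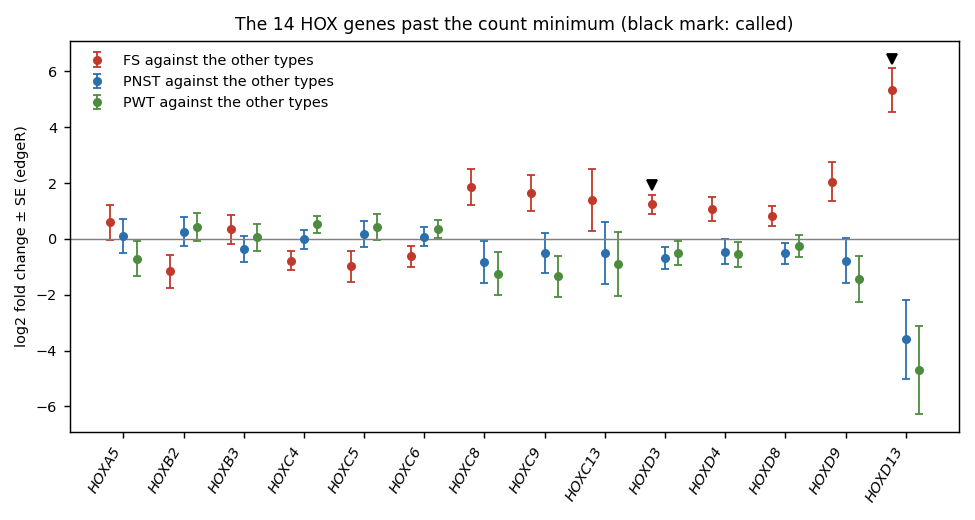
Log2 fold changes with standard errors from edgeR for the 14 HOX genes past the count minimum, in FS, PNST and PWT each against the other types. Black marks show the called genes, HOXD13 (5.33) and HOXD3 (1.23) in FS.

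The 6 PNST were compared with the 4 FS and 6 PWT, sharing tumors with the comparison above. Every PNST had counts of *HOXC6* and *HOXC4*, and no HOX gene set PNST apart. Posterior genes summed to 5.07 to 30.4 CPM in PNST, a range that holds the 23.7 CPM of the shoulder FS and lies below the 99.8, 431 and 109 CPM of the other FS. edgeR called 0 of 14 HOX genes (0% of all genes), with 1 of 14 at an unadjusted p under 0.05 (2415 of all 15408), and DESeq2 called 0 of 25 (1.55% of all genes). That 1 gene was *HOXD13*, whose levels are given above, lower in PNST at a log2 fold change of -3.60, SE 1.41 (edgeR adjusted p 0.253). edgeR with no count minimum called 0 of 39 (0.00549% of all genes), with 7 of 39 at an unadjusted p under 0.05, as were 4797 of all 36420 genes.

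Within PNST, S1-04 and S1-05 of the knee had the highest *HOXC6* (99.9 and 129.7 CPM) and *HOXC13* (7.23 and 10.5 CPM). S1-10 of the thigh, a PWT by histology, had the lowest *HOXD3* (2.17 CPM), *HOXD4* (4.35 CPM) and *HOXD8* (5.07 CPM) of all 16 tumors. The interdigital tumor S2-07 had 1.68 CPM of *HOXB3*, from 3 counts, where the other 5 PNST had 29.9 to 36.1. It also had the highest *HOXD13* (4.48), *HOXD9* (5.61) and *HOXA13* (2.24) of PNST.

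The 6 PWT were compared with the 4 FS and 6 PNST, the same 16 tumors again. They expressed *HOXC6*, *HOXC4* and *HOXB3* and the fewest HOX genes, with at least 1 count for 17 to 25 (median 23.5) of 39, against 24 to 31 (median 29) in PNST and 27 to 37 (median 32) in FS. At the depth of S1-12 the expected numbers were 12.6 to 18.2 in PWT and 13.9 to 22.6 in PNST, so these ranges overlapped. *HOXA13*, *HOXB8* and *HOXD11* had 0 counts in all 6 PWT. edgeR called 0 of 14 HOX genes (2.12% of all genes), with 1 of 14 at an unadjusted p under 0.05 (3449 of all 15408), and 0 of 39 with no count minimum (0.351% of all genes). DESeq2 called 2 of 20, both lower in PWT, where 5.30% of all genes were called (2.77% lower).

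The 2 genes were *HOXA9* (DESeq2 log2 fold change -3.43, SE 1.15, adjusted p 0.0379) and *HOXB6* (DESeq2 -3.94, SE 1.17, adjusted p 0.0181). Both were also near 0 in PNST, so PWT and PNST overlapped. *HOXD13* was lower in PWT at -4.70 (SE 1.58), with an adjusted p of 0.0980 from edgeR. Compared directly, PNST and PWT differed in 0 of 14 HOX genes in edgeR (2.28% of all genes), with 0 of 14 at an unadjusted p under 0.05 (3603 of all 15408), and in 0 of 15 in DESeq2 (4.90% of all genes). Among PWT, the head tumor S2-03 had 0 counts of *HOXA4*, *HOXA5*, *HOXB6* and *HOXC8* and the lowest *HOXB3* (10.1 CPM). S1-07 of the thoracic wall had the highest *HOXB1* (6.27 CPM), *HOXB2* (14.2 CPM) and *HOXC4* (49.0 CPM) of all tumors. The antebrachium tumor S2-04 had 0 counts of *HOXD9*, *HOXD10*, *HOXD11* and *HOXD13* at a depth where 1 count was 1.39 CPM.

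By site, the 7 hindquarter tumors were compared with the 9 of other sites, with type uneven between them. *HOXC9* was at 0.362 to 26.9 (median 8.48) CPM in the hindquarter and 0.748 to 12.9 (median 2.79) elsewhere. *HOXD9* was at 0.950 to 4.83 (median 2.19) CPM in the hindquarter and 0 to 46.0 (median 2.85) elsewhere. edgeR called 0 of 14 HOX genes (0% of all genes), with 0 of 14 at an unadjusted p under 0.05 (2335 of all 15408), and DESeq2 called 0 of 18 (1.81% of all genes). The largest differences were *HOXD9*, lower at -1.41, SE 0.74 (edgeR adjusted p 0.378), and *HOXC9*, higher at 1.30, SE 0.67 (edgeR adjusted p 0.372). Against the 5 forelimb tumors alone, edgeR called 0 of 14 (0% of all genes), with 1 of 14 at an unadjusted p under 0.05 (1609 of all 15408), *HOXD9* at -2.12 (SE 0.79), and DESeq2 called 0 of 13 (1.11% of all genes).

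The 3 distal forelimb tumors, 1 of each type, were compared with the other 13. *HOXD9* was at 46.0 (S1-12), 5.61 (S2-07) and 3.74 (S2-11) CPM in them and 0 to 4.83 (median 2.19) in the others. The log2 fold change of *HOXD9* was 2.78 (SE 0.60), with an unadjusted p of 0.000179 and an edgeR adjusted p of 0.552. *HOXD13* was at 171, 4.48 and 1.496 CPM in the 3 and 0 to 45.1 (median 0.818) in the others, and *HOXD11* at 99.4, 1.121 and 0 CPM and 0 to 2.19 (median 0). In *HOXD13* and *HOXD11* the metacarpus FS was far above the other 2 distal tumors. edgeR called 0 of 14 HOX genes (0.00649% of all genes), with 3 of 14 at an unadjusted p under 0.05 (*HOXD4*, *HOXD9* and *HOXD13*), as were 932 of all 15408 genes, and DESeq2 called 0 of 34 (0.00551% of all genes). With no count minimum edgeR called 1 of 39, *HOXD11* at 5.85, SE 1.00 (adjusted p 0.0293), where 0.0192% of all genes were called.

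The 3 thoracic tumors, all PWT, were compared with the other 13, of which 3 were PWT too, so type and site are partly tied there. *HOXD13* was at 0.570, 1.64 and 0.818 CPM in the thorax and 0 to 171 (median 1.17) elsewhere, and *HOXC13* at 0, 0.547 and 0.818 CPM against 0 to 18.1 (median 0.748). edgeR called 0 of 14 HOX genes (0% of all genes), with 0 of 14 at an unadjusted p under 0.05 (693 of all 15408), and DESeq2 called 0 of 20 (0.0404% of all genes). With molecular type as a term edgeR called 0 of 14, and 0 of all 15408 genes.

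Genes around the HOX system were read from the same fits. Of 9 HOX cofactor genes, 7 were tested in FS against the other types, and edgeR called 2 (9.46% of all genes), with a median log2 fold change of -0.41 over the 7 against 0.0039 over all genes. *MEIS1*, a cofactor of posterior HOX proteins, was at 28.0, 32.9, 33.1 and 35.2 CPM in FS, 7.29 to 24.1 (median 18.1) in PNST and 2.79 to 19.4 (median 8.59) in PWT. Every FS was above every other tumor in *MEIS1* (log2 fold change 1.22, SE 0.34, edgeR adjusted p 0.0281). *PBX3*, a cofactor of anterior and central HOX proteins, was at 34.1, 52.6, 38.7 and 45.6 CPM in FS, 77.2 to 136 (median 105) in PNST and 59.9 to 139.6 (median 102) in PWT. Every FS was below every other tumor in *PBX3* (log2 fold change -1.27, SE 0.26, edgeR adjusted p 0.00403).

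Of 16 limb genes, 7 were tested and edgeR called 1 (9.46% of all genes), *LMX1B*, of dorsal limb identity. It was at 2.51, 29.1, 18.4 and 6.18 CPM in FS, 0 to 3.14 (median 0.789) in PNST and 0 to 1.39 (median 0.689) in PWT, with the shoulder FS inside the range of PNST (log2 fold change 3.87, SE 0.63, edgeR adjusted p 0.00101). Of the limb genes below the count minimum, *EN1* and *HAND2*, named after their values were seen, were higher in every FS than in the other 12 tumors. *EN1* was at 4.39 to 12.4 CPM in FS and at most 1.26 elsewhere. *HAND2* was at 1.43 to 4.39 CPM in FS, on 2 to 8 counts, and at most 1.26 elsewhere. The other limb genes below the minimum overlapped. *TBX5*, which marks the forelimb in the embryo, was at 15.1, 10.4, 27.6 and 0 CPM in FS, 0 to 1.17 (median 0.142) in PNST and 0 to 0.748 (median 0.273) in PWT. It was thus high in the shoulder and metacarpus FS and in the stifle FS, and at 0 in the hip FS (log2 fold change with no count minimum 5.13, SE 0.79, edgeR adjusted p 0.000305). In the hindquarter *TBX5* was at 0 to 10.4 (median 0.284) CPM against 0 to 27.6 (median 0.547) elsewhere (edgeR adjusted p 0.592). *PITX1*, which marks the hindlimb in the embryo, was at 0.359, 4.39, 23.9 and 4.75 CPM in FS, 0 to 9.53 (median 0.576) in PNST and 0 to 0.570 (median 0) in PWT. Its highest levels were in the distal forelimb tumors S1-12 and S2-07, and edgeR did not call it in FS (adjusted p 0.156 with no count minimum). *TBX4*, another hindlimb gene, had at most 3 counts in any tumor (edgeR adjusted p 0.197 in FS).

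Of 18 regulators of HOX clusters, 15 were tested and edgeR called 5 in FS, all higher (5.78% of all genes higher), with a median log2 fold change of 0.18 over the 15. *GDF11*, a ligand that turns on posterior HOX genes in the embryo, was at 86.8, 32.4, 25.8 and 13.8 CPM in FS, 3.36 to 11.0 (median 6.47) in PNST and 3.74 to 7.65 (median 5.24) in PWT. It was highest in the shoulder FS, and every FS was above the other 12 tumors (log2 fold change 2.71, SE 0.35, edgeR adjusted p 0.000228). *CYP26B1*, which degrades retinoic acid, was at 95.01, 183, 1114 and 160.1 CPM in FS, 54.4 to 139 (median 101) in PNST and 42.4 to 92.3 (median 57.0) in PWT, and the shoulder FS lay inside the range of the others (log2 fold change 2.26, SE 0.44, edgeR adjusted p 0.00302). *CBX2*, a Polycomb subunit, was at 3.23, 22.5, 11.0 and 9.03 CPM in FS, 1.121 to 4.09 (median 2.96) in PNST and 0 to 3.42 (median 3.03) in PWT, with the shoulder FS again inside (log2 fold change 2.18, SE 0.53, edgeR adjusted p 0.0124). *EZH2*, the Polycomb methyltransferase, was at 15.8, 45.5, 16.6 and 41.3 CPM in FS, 7.25 to 14.6 (median 10.2) in PNST and 5.57 to 21.8 (median 11.7) in PWT, high in the stifle and hip FS (log2 fold change 1.35, SE 0.33, edgeR adjusted p 0.0134). *RNF2*, a Polycomb ubiquitin ligase, was at 14.3, 18.1, 29.5 and 23.3 CPM in FS, 1.75 to 11.2 (median 6.20) in PNST and 2.73 to 17.4 (median 6.28) in PWT, overlapping in the shoulder FS (log2 fold change 1.51, SE 0.45, edgeR adjusted p 0.0377). Of 9 noncoding genes of the clusters, 7 were in the table and 0 passed the count minimum, and *HOTAIR*, named after its values were seen, had 17 counts in the stifle FS and at most 3 in any other tumor. Of 16 other positional homeobox genes, 4 were tested and 0 called. In PNST, PWT and the site comparisons, edgeR called 0 genes of these lists.

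**Figure D5:**
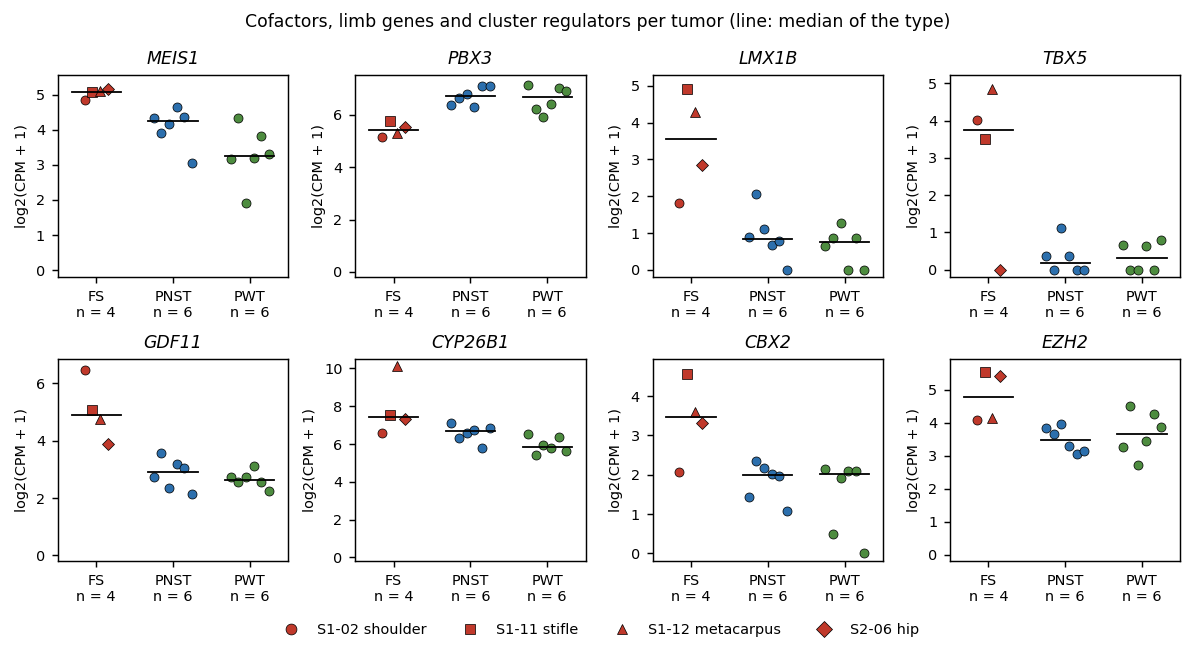
CPM of 8 cofactor, limb and regulator genes as log2 of CPM plus 1 in each tumor, by type, with a line at the median and separate marks for the 4 FS. MEIS1 is higher and PBX3 lower in every FS than in any other tumor, and TBX5 is at 0 in the hip FS.

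The stifle, metacarpus and hip FS shared part of their posterior HOX RNA and differed in the rest. All 3 were above the 12 other tumors in 6 of 16 posterior genes, *HOXA9*, *HOXA10*, *HOXA13*, *HOXB9*, *HOXD11* and *HOXD13*, and in *HOXB6*, *HOXB8* and *HOXD3*. These were 9 of 39 HOX genes, where 1.59% of the 36420 genes with a count behaved alike, and the fewest counts behind them in these FS were 3. In *HOXD11* the stifle and hip FS had 4 and 3 counts, and the PNST S1-09 had 4. In *HOXA10* the hip FS had 3 counts (1.43 CPM), and the PWT S2-04 had 1 (1.39 CPM). Both differences lie within counting error. The 3 FS were grouped after their posterior HOX counts were seen, so these numbers only describe them. The metacarpus FS had the highest CPM of 9 of the 16 posterior genes, on 2 to 93 counts, among them *HOXD9*, *HOXD10*, *HOXD11* and *HOXD13*. The stifle FS had the highest CPM of the 5 posterior genes of cluster C, on 3 to 49 counts. In the hip FS *HOXA9* and *HOXB13* were highest, on 28 and 39 counts. The shoulder FS had *HOXA9*, *HOXA7* and *HOXC8* within the range of the other FS, 0 counts of *HOXB7*, *HOXB8*, *HOXB9* and *HOXB13*, and *HOXD13* at 3 counts.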

How the data were processed

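The authors aligned Ion Proton reads of RNA from formalin-fixed sections, prepared with the Ion Total RNA-Seq Kit v2 after ribosomal depletion, to the dog assembly ROS-canfam-01 with STAR and counted them per gene with htseq-count. The deposited unit is counts, without normalization, and whether reads were counted by strand is not stated, so counts of overlapping genes are uncertain. Per tumor, 41.8% to 66.7% of reads listed lay outside genes, 9.11% to 31.6% were not unique and 0.410% to 1.68% were ambiguous between genes. No columns of per-sample values were left unused. The 9 tumors with the prefix S1 had 3 runs each, which were summed, and the 7 with the prefix S2 had 1.

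The 15408 of 41818 genes that reached 10 counts in 4 or more tumors were tested with edgeR 4.0.16 (quasi-likelihood F test, TMM) under R 4.3.3, and p-values were adjusted over all genes tested (Benjamini-Hochberg). Calls needed an adjusted p under 0.05 together with a log2 fold change over 1 in size. CPM is the count over the library size after TMM. DESeq2 1.42.0 with its default filtering and edgeR with no count minimum (36420 genes) were alternatives. The comparisons were each type against the 2 others pooled, PNST against PWT (added after seeing the data), and 4 comparisons of site, with no other term in the model. The edgeR code was tested on simulated data.

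HOX genes past the count minimum, and those with at least 10 counts in any tumor, were named with their values. Genes of the cofactor, limb, regulator, noncoding and other homeobox lists were named where edgeR called them, and TBX4, TBX5 and PITX1 in any case. Values of 1 HOX gene and 1 marker gene are not reported here. The members and lists were chosen with earlier results of these data known. Gene order and overlaps came from a RefSeq gene table of another dog assembly, UU_Cfam_GSD_1.0, which held 38 of the 39 HOX genes (not HOXD4). Intervals of counts are exact Poisson intervals and those of shares exact binomial ones (scipy 1.17.1). The number of HOX genes expected at the lowest depth was computed from each tumor's counts without random draws. Figures were drawn with matplotlib 3.10.9.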

Additional observations from a re-analysis of the deposited data

Results flagged for a closer look

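Within each type, a tumor was listed here when its gap to the next tumor was large against the range of the type. Examined were the HOX genes with at least 10 counts in a tumor, in each type where a tumor of that type reached 10 counts. Of these 54 groups of values, 7 gave such a tumor. For normally distributed values about 1 in 20 groups would by chance, and whether that rate holds for these values was not tested. HOXB1 was at 6.27 CPM in S1-07 of the thoracic wall, and the next PWT was at 2.19. HOXB3 was at 95.8 CPM in S1-12 of the metacarpus, and the next FS was at 28.5. HOXB3 was at 1.68 CPM in S2-07 between the digits, and the next PNST was at 29.9. HOXC13 was at 10.1 CPM in S2-03 of the head, and the next PWT was at 0.818. In S1-12, HOXD9 was at 46.0 CPM, HOXD10 at 40.5 and HOXD11 at 99.4, and the next FS were at 4.66, 1.10 and 2.19. S1-12 had the fewest counts on genes, 507728, and the 3 runs of this tumor gave HOXD11 15, 22 and 17 counts.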

How the results depend on the processing

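edgeR with the count minimum called 2 HOX genes in FS against the other types. The count was 10 with no count minimum, 11 with DESeq2, 1 by histological diagnosis (HOXD13), 3 with S1-04 and S1-05 summed, and 2 with RLE factors, the prefix as a term, hindquarter as a term or no fold threshold. Leaving out 1 tumor gave 0 (without S1-12) to 3 (without S1-04), with 1 without S1-03 and 1 without S1-11. Alternatives added after seeing the data gave 1 in S1 tumors only, 0 in S2 tumors only, 1 without the 2 reassigned tumors, 1 in hindquarter tumors only and 1 outside the hindquarter. The S2 fit has 1 FS, which is assumed to vary like the other group. With no count minimum, leaving out 1 tumor gave 5 (without S1-12) to 11 HOX genes.

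The log2 fold change of HOXD13 in FS was 5.03 by histology, 5.54 in S1 tumors, 4.85 in S2 tumors (not called, edgeR adjusted p 0.0567) and 5.19 to 5.76 in the 12 fits with 1 tumor left out in which HOXD13 still passed the count minimum. Those 12 do not cover the fits without S1-03, S1-11, S1-12 or S2-06. With no count minimum it was 5.20, and the lowest of all 16 fits was 3.75, without S1-12. With 1 tumor left out, HOXD3 ranged from 1.01 to 1.35, HOXB3 from -0.44 to 0.63 and HOXD4 from 0.30 (without S1-12) to 1.38. Directions turned for HOXC13 (-2.14) and HOXD9 (-1.44) in S2 tumors only, for HOXB3 (-0.39) and HOXD9 (-0.84) in hindquarter tumors only, and for HOXB3 (-0.44) without S1-12. The reasons were not tested. Over the whole table, the genes called in FS were 1457 of 15408, the same number with the prefix as a term, 1485 with RLE factors, 1444 with hindquarter as a term, 1633 with no fold threshold and 1477 of 15482 with S1-04 and S1-05 summed. They were 205 by histology, 833 in S1 tumors, 68 in S2 tumors, 632 in the hindquarter, 538 outside it and 1028 of 15102 without the 2 reassigned tumors. With 1 tumor left out they were 911 (without S1-11) to 1583 (without S2-03), with 1299 without S1-12 and 1498 without S1-04. With no count minimum they were 1302 (without S1-11) to 2138 (without S2-03), against 1936 of 36420 with all tumors.

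All other comparisons had 0 HOX genes called, 0 to 0 with 1 tumor left out, except PWT with DESeq2 (2) and the distal forelimb with no count minimum (1, HOXD11) and in S1 tumors only (1, HOXD9, with 13 of all 15408 genes called). That last fit has S1-12 as its only distal tumor, which is assumed to vary like the others, so it shows nothing beyond this tumor. Other fits within 1 prefix have groups of 1 tumor as well.

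No paired analysis was possible because each tumor was sampled once, and S1-04 and S1-05, with the same labels, are of 1 type. There were 4 FS from 4 sites, so type and site are partly tied. Of the FS 3 carry the prefix S1, as do 5 of 6 PNST, while 5 of 6 PWT carry S2. Of the hindquarter tumors 6 carry S1 and 1 carries S2. The comparisons of PNST with PWT and of the hindquarter are thus largely tied to the prefix. Most HOX genes had few counts, and levels rest on single libraries of fixed tissue. Protein, cell type within the section and strand were not measured here.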
